A study of Homo sapiens with 6 samples.

Results

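A set of 10 immediate early genes was followed through CDK7 inhibition in Ewing sarcoma cells: EGR1, EGR2, EGR3, SRF, NR4A1, NR4A2, IER2, IER3, IER5 and IER5L. They were chosen by gene symbol, each matching 1 row, as immediate early genes outside the FOS and JUN families, and make up 10 of the 27420 genes in the deposited expression table. RNA-seq was available for A673 and SKNMC, which are established human Ewing sarcoma cell lines. Cells of each line had received DMSO (the vehicle), THZ1 at 50 nM or THZ1 at 200 nM for 6 h, and 1 library represented each of the 6 conditions. THZ1 is a covalent inhibitor of CDK7, the kinase of the general transcription factor TFIIH that phosphorylates RNA polymerase II. The labels name no other agent or genetic change in either line, and all 6 libraries come from cells that received vehicle or drug.

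Immediate early genes are switched on within minutes of a stimulus, without new protein synthesis, by transcription factors that are already present in the cell. Serum response factor (SRF) binds CArG boxes together with ETS-family ternary complex factors downstream of ERK, or with actin-regulated MRTF cofactors, while CREB acts through cAMP response elements (CRE). Many immediate early genes are short, and their mRNAs and proteins are short-lived. In Ewing sarcoma the driver is a fusion of EWS with an ETS factor, most often FLI1.

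All levels are given in FPKM (fragments per kilobase of transcript, scaled to the mapped reads of the library), which sets the length of a gene aside but remains a share of the RNA in the library. A higher FPKM is therefore a larger share and not necessarily more RNA per cell, and fewer cells of one kind and less RNA per cell cannot be told apart in these bulk samples. Log2 fold changes were calculated as log2((FPKM + 1) / (FPKM + 1)). A gene was counted as tested where the DMSO library of its line exceeded 1 FPKM, and as called where it differed at least 2-fold. For the comparison of the lines with DMSO, the mean of both DMSO libraries had to exceed 1 FPKM. With 1 library per condition there was no replicate error and no p-value, so each count is set beside the share of all genes tested that passed the same fold. Both doses of a line were compared with the same DMSO library.

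All 8 Ewing sarcoma markers examined (CD99, FLI1, NKX2-2, NR0B1, STEAP1, PRKCB, BCL11B, LIPI) were above 1 FPKM in the 6 libraries, with summed levels of 922 to 1020 FPKM in A673 and 525 to 730 FPKM in SKNMC. Summed markers of epithelium, endothelium and skeletal muscle did not exceed 0.839 FPKM in any library. For endothelium only 1 of 2 markers, CDH5, was found in the expression table, and PECAM1 was not. Leukocyte markers summed to at most 0.0546 FPKM in A673 and to 7.96 to 13.2 FPKM in SKNMC, almost all of it from PTPRC, which encodes CD45, at 10.2, 7.90 and 13.1 FPKM. The part of this signal in the differences between the lines was not tested. The FPKM sums of the THZ1 libraries were 97.8% to 101% of their DMSO library. Sequencing depth is not recorded in FPKM, and a rough estimate from the commonest ratio of low values put the THZ1 libraries at 88.9% to 96.6% of the depth of their DMSO library.

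With DMSO, 8 of the 10 genes exceeded 1 FPKM in both lines. In A673 the order from the highest was IER2 at 65.6 FPKM, IER3 at 37.3, IER5 at 34.9, SRF at 30.5, EGR1 at 12.7, EGR2 at 12.2, IER5L at 9.42 and NR4A1 at 5.41. In SKNMC it was EGR2 at 32.2 FPKM, SRF at 27.1, IER2 at 20.5, IER3 at 18.4, IER5 at 18.2, IER5L at 12.7, NR4A1 at 10.0 and EGR1 at 2.38. EGR3 and NR4A2 stayed below 1 FPKM in both DMSO libraries and were not tested. Neighbours in these orders have no replicate spread to be set against, so EGR1 and EGR2 in A673, or IER3 and IER5 in SKNMC, are not ranked firmly. None of the 10 genes was listed at 0 in any library.

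**Figure D1:**
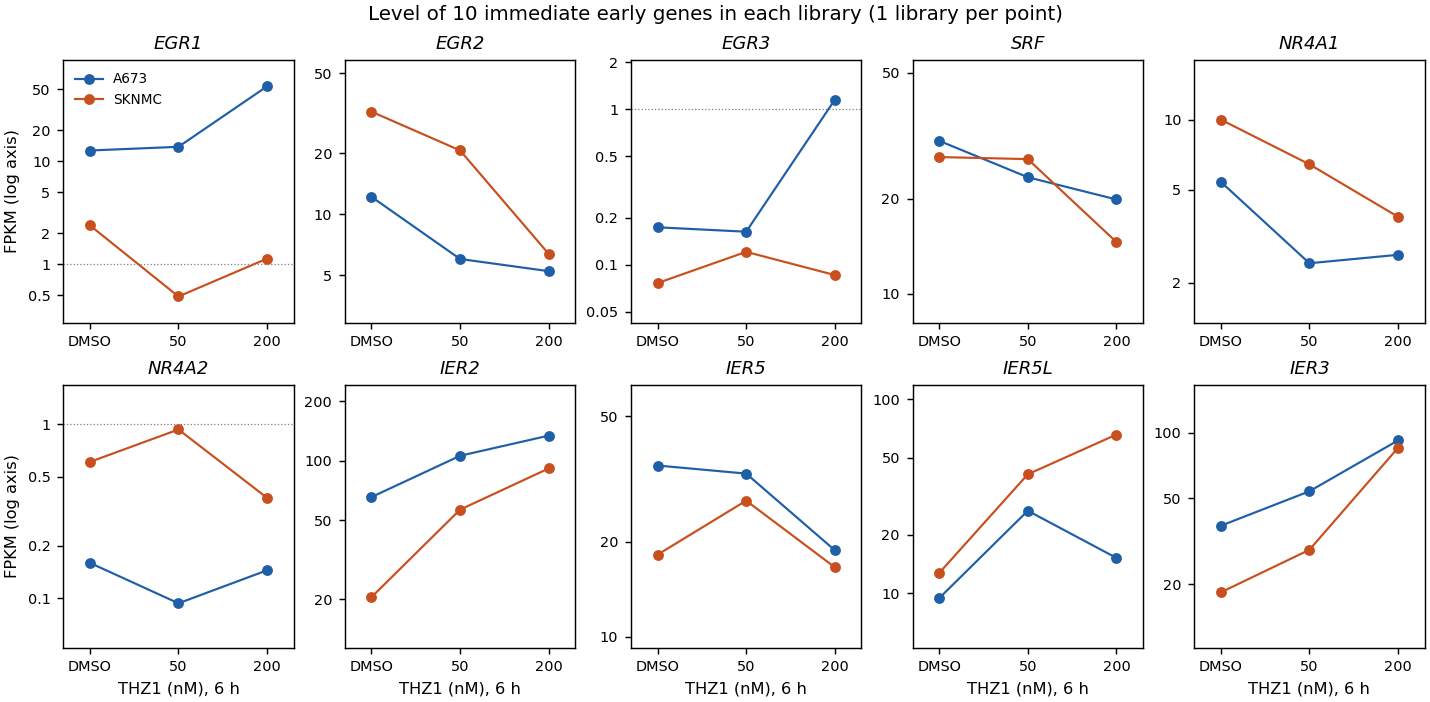
FPKM of the 10 genes (log axis, with its own range in each panel) against treatment for A673 (blue) and SKNMC (orange), each point being 1 library and the dotted line marking 1 FPKM where it falls in the panel. IER2 and IER3 are highest at 200 nM in both lines, EGR2 is lowest at 200 nM in both, and EGR1 reaches 53.4 FPKM in A673 at 200 nM while staying at or below 2.38 FPKM in SKNMC.

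The members divided into genes with a larger share and genes with a smaller share of the RNA after THZ1, against a background that was mostly lower. At 50 nM in A673, 1 of the 8 tested members (IER5L) was higher at least 2-fold, against 0.343% of the 11077 genes tested, and 0 were lower at least 2-fold, against 15.9%. At 200 nM in A673, 3 were higher (EGR1, IER2, IER3), against 0.126% of genes, and 1 was lower (EGR2), against 25.3%. At 50 nM in SKNMC, 2 were higher (IER2, IER5L), against 0.471% of the 11896 genes tested, and 1 was lower (EGR1), against 15.8%. At 200 nM in SKNMC, 3 were higher (IER2, IER3, IER5L), against 0.462%, and 2 were lower (EGR2, NR4A1), against 27.3%. The members called higher made up 2.63% of the 38 genes of the whole table called higher in A673 at 50 nM, and 21.4% of the 14 at 200 nM. In SKNMC they made up 3.57% of 56 genes at 50 nM and 5.45% of 55 at 200 nM. Some of these calls ended under another scaling or filter: those of IER2 and IER3 in A673 at 200 nM with ribosomal protein genes as the scale (0.67 and 0.93), that of EGR2 in A673 (-0.76) and of NR4A1 in SKNMC (-0.72) at 200 nM with the 75th percentile, and that of EGR1 in SKNMC at 50 nM, where FPKM above 5 was required. Others were gained. In A673 at 50 nM EGR2 and NR4A1 were lower at least 2-fold with a pseudocount of 0.1 (-1.01 and -1.13) and with ribosomal protein genes as the scale (-1.11 and -1.07). Of all genes tested there, 21.6% and 21.3% were lower under these settings. On the ribosomal scale A673 at 200 nM had 1 member higher, against 0.0451% of genes, and 3 lower, against 34.5%, in place of 3 and 1.

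Median log2 fold changes of the 8 tested members were 0.01 and 0.02 in A673 at 50 and 200 nM, beside medians of -0.27 and -0.40 over all genes tested. In SKNMC they were 0.26 and -0.40, beside -0.32 and -0.55. The sign of the members' medians turns with the scale: with ribosomal protein genes as the scale they were -0.21 and -0.31 in A673 and -0.13 and -0.82 in SKNMC, and with the 75th percentile 0.26, 0.38, 0.54 and 0.05. Medians of all genes tested moved too, to -0.47, -0.68, -0.66 and -1.02 with ribosomal protein genes and to -0.06, -0.07, -0.07 and -0.07 with the 75th percentile. Those of the members lay above them in each comparison. The members' medians hide the split, since the members ranged from -1.09 to 1.98 in A673 at 200 nM and from -2.17 to 2.28 in SKNMC at 200 nM. SRF and NR4A1 lay inside the bulk of the table in every comparison with DMSO, with 18.6% to 71.4% of the genes tested below them.

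**Figure D2:**
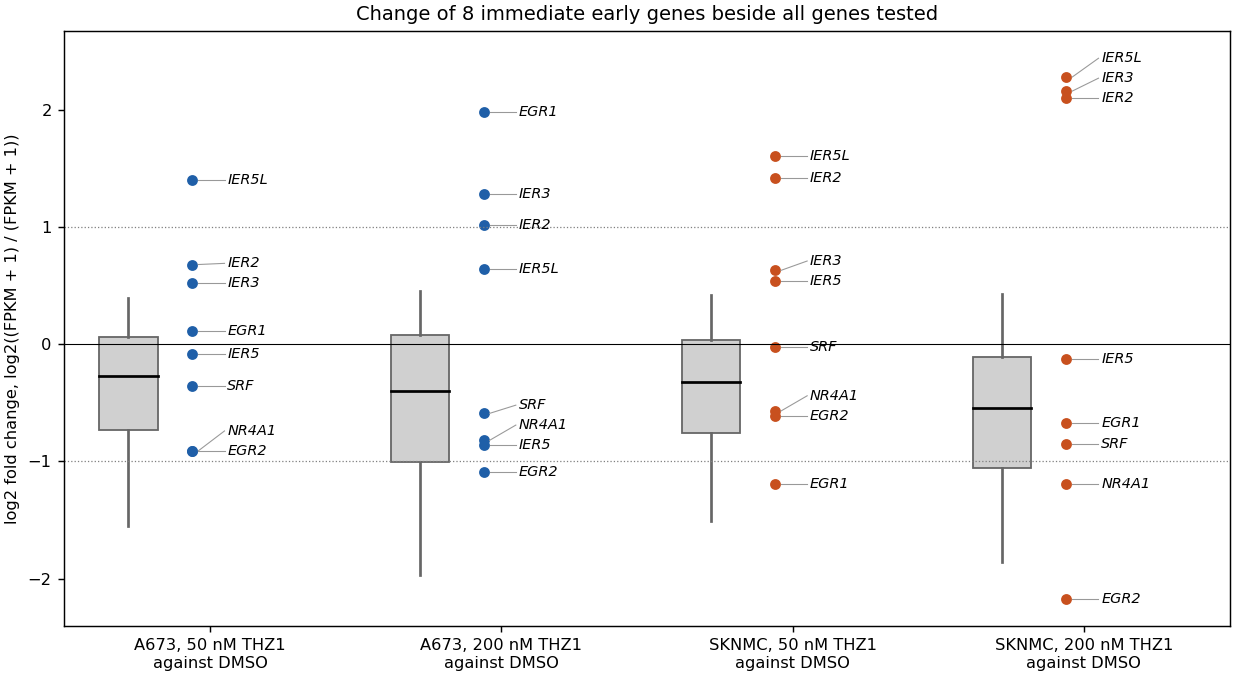
Log2 fold change against DMSO of the 8 tested genes (points, A673 in blue and SKNMC in orange, 1 library per condition) beside the distribution of all genes tested (grey boxes from the first to the third quartile with the median as a black line, whiskers from percentile 5 to percentile 95). Dotted lines mark 2-fold. The IER2, IER3 and IER5L points lie above the whiskers in all 4 comparisons, and the SRF and NR4A1 points lie within them.

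The EGR genes encode zinc finger transcription factors that bind GC-rich sites and are among the best known targets of SRF. Their 3 members did not move together. EGR1 (ENSG00000120738), a growth and stress response factor, spans chr5:137801178-137805004 on the plus strand of hg19. In A673 the DMSO library held 12.7 FPKM, the 50 nM library 13.8 and the 200 nM library 53.4. The last was 4.19 times the first and stood apart from both others. Its log2 fold change of 1.98 was number 2 of the 11077 genes tested in A673. In SKNMC EGR1 was at 2.38 FPKM with DMSO, 0.484 at 50 nM and 1.13 at 200 nM, so both THZ1 libraries were below the DMSO library and below every A673 library. The log2 fold changes there were -1.19 and -0.67, and these rest on levels near 1 FPKM. With a pseudocount of 0.1 they were -2.09 and -1.01. EGR1 had the widest range of the 10 genes, with its highest library at 110 times its lowest.

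EGR2 (ENSG00000122877), known for its part in Schwann cell myelination and as a susceptibility gene of Ewing sarcoma, spans chr10:64571755-64679660 on the minus strand of hg19. This listed span of 108 kb is far longer than its 2979-base canonical transcript. Its A673 levels were 12.2 FPKM with DMSO, 6.01 at the lower dose and 5.23 at the higher. Those of SKNMC were 32.2, 20.7 and 6.37 FPKM. The DMSO library was the highest of each line. At 200 nM SKNMC held 19.8% of its DMSO level, a log2 fold change of -2.17 with 2.45% of the genes tested below it. The corresponding value in A673 was -1.09, with 22.7% of genes below it.

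EGR3 (ENSG00000179388), on chromosome 8, had A673 levels of 0.174, 0.163 and 1.15 FPKM with DMSO, the lower and the higher dose. The SKNMC levels were 0.0762, 0.121 and 0.0858 FPKM. The A673 library at 200 nM was the highest, as for EGR1, but all of these values are near or below 1 FPKM. Summed over the 3 EGR genes, EGR1 made up 50.7% of the FPKM in A673 with DMSO and 89.3% at 200 nM, compared with 6.88% and 14.9% in SKNMC.

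SRF (ENSG00000112658), the factor that binds CArG boxes, spans chr6:43139036-43149243 on the plus strand of hg19. A673 held 30.5 FPKM with DMSO, 23.4 at the lower dose and 19.9 at the higher. SKNMC held 27.1, 26.7 and 14.6 FPKM. The lines were 1.12-fold apart with DMSO and 1.36-fold apart at 200 nM, and SRF had the narrowest range of the 10 genes, with a highest library at 2.08 times the lowest. None of its log2 fold changes passed 2-fold, and the lowest was -0.85 in SKNMC at 200 nM, which became -1.41 with ribosomal protein genes as the scale.

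Promoter sequences were taken from RefSeq on GRCh38.p14, as windows of 300 bases that run from 250 before to 50 after a transcription start. The table holds 11 windows for 7 of the 10 genes. At 200 nM the log2 fold changes of EGR1, EGR2 and SRF were 1.98, -1.09 and -0.59 in A673 and -0.67, -2.17 and -0.85 in SKNMC. The part of the CArG box in these values was not tested. The windows of EGR1, EGR2 and SRF that hold CArG boxes are shown because the motif is shared. They lie at chr5:138465229-138465528 on the plus strand, chr10:62816317-62816616 on the minus strand and chr6:43171019-43171318 on the plus strand, and are written 5′ to 3′. Capitals mark matches to the CArG box, the CRE core TGACG, the EGR site GCGNGGGCG and the TATA box TATAA, each searched on both strands.
EGR1: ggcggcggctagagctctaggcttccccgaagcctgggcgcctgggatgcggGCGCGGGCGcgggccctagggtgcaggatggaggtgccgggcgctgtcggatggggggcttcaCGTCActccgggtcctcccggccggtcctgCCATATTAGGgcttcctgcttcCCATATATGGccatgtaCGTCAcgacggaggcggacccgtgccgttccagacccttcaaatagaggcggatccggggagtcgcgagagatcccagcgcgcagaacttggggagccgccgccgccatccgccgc
EGR2: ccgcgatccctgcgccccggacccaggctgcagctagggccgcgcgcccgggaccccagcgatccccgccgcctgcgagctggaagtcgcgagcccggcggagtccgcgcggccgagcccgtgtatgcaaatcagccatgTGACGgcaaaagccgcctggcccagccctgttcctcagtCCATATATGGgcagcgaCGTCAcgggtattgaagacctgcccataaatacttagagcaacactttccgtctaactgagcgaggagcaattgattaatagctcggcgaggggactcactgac
SRF: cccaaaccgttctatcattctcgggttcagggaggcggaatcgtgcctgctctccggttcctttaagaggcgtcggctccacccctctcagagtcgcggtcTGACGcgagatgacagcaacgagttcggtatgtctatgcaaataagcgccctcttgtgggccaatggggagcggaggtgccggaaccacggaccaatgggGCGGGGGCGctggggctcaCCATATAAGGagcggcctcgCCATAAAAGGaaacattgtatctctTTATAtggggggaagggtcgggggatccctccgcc

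The EGR1 window holds 2 CArG boxes, with first bases at positions -105 and -83 from the start. One lies in the EGR2 window at -71, and 2 lie in the SRF window at -30 and -10, the first of which overlaps a TATAA match. A CArG box was found in 1.29% of the 35116 promoter windows in the table, the CRE core in 24.6%, the EGR site in 9.43% and the TATAA match in 20.4%. EGR1 and SRF each hold 1 EGR site in these windows. The other windows of EGR2 and SRF and both windows of NR4A1 hold no CArG box. The full CRE, TGACGTCA, was in none of the 11 windows and in 1.85% of all, while the ETS core GGAA was in each of the 11 and in 95.5% of all. A match describes letters and does not show binding.

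**Figure D3:**
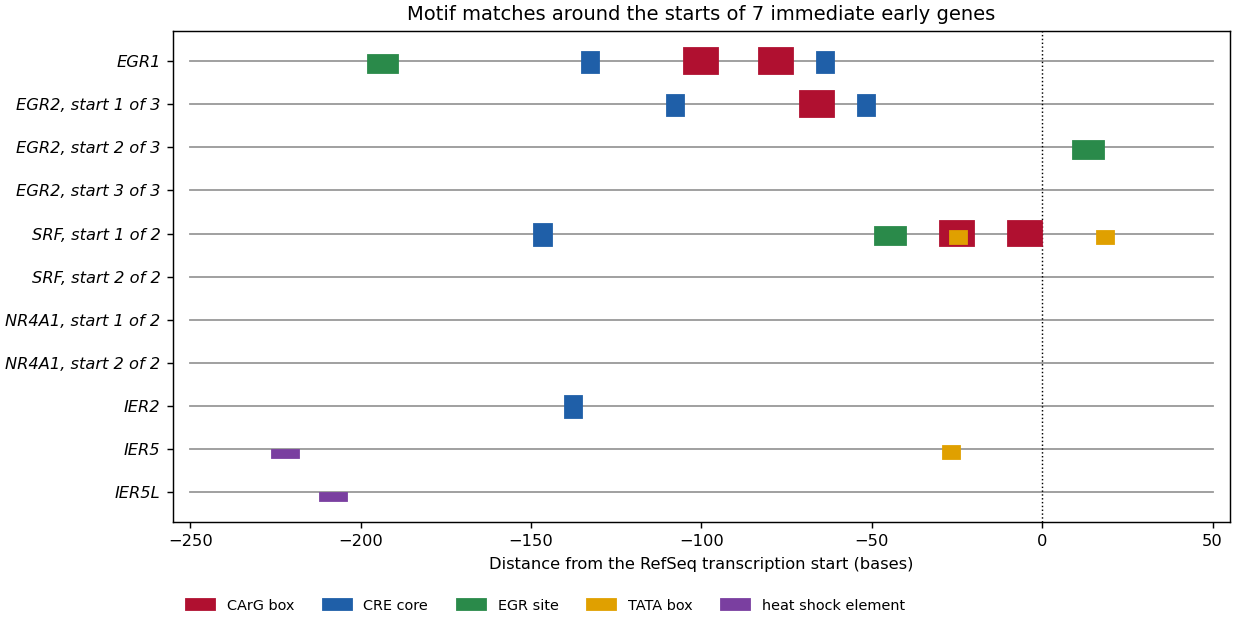
Motif matches along the 11 promoter windows of the 7 genes with a RefSeq window, by distance in bases from the transcription start (dotted line). Coloured blocks are matches on either strand. CArG boxes (red) appear in the windows of EGR1, EGR2 start 1 and SRF start 1, and heat shock element matches (purple) in those of IER5 and IER5L.

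Of the 125 genes with a CArG box that were tested in A673 at 200 nM, 23.2% were lower at least 2-fold, compared with 25.8% of the 8254 genes without one, and the 1 that was higher is EGR1 itself. In SKNMC at 200 nM 28.8% of the 139 genes with a CArG box and 28.4% of the 8761 without were lower, and 0 of those with one were higher. EGR1, EGR2 and SRF are among the genes with a CArG box.

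NR4A1 and NR4A2 are orphan nuclear receptors that act without a known hormone and regulate apoptosis, metabolism and neuronal differentiation. NR4A1 (ENSG00000123358) spans chr12:52416615-52453291 on the plus strand of hg19, and the long noncoding gene RP11-1100L3.8 overlaps it on the minus strand. Whether strand was used in quantification was not given in the sources used here, and this partner was listed at no more than 0.702 FPKM. Levels of NR4A1 in A673 were 5.41 FPKM with DMSO, 2.42 at the lower dose and 2.63 at the higher, and those in SKNMC were 10.0, 6.43 and 3.83 FPKM. The DMSO library was the highest in each line, and SKNMC was above A673 in each condition. The log2 fold changes ran from -0.57 in SKNMC at 50 nM to -1.19 in SKNMC at 200 nM. NR4A2 (ENSG00000153234), at chr2:157180943-157198860 on the minus strand of hg19, was at 0.160, 0.0937 and 0.145 FPKM in A673 and at 0.608, 0.934 and 0.378 FPKM in SKNMC, below 1 FPKM throughout.

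The IER genes are named for their immediate early response, and IER3 is not of the same protein family as IER2, IER5 and IER5L. IER2 (ENSG00000160888) encodes a small nuclear protein and spans chr19:13261228-13265722 on the plus strand of hg19. The A673 libraries held 65.6 FPKM with DMSO, 106 at the lower dose and 134 at the higher. The SKNMC libraries held 20.5, 56.7 and 91.5 FPKM. Both lines were ordered by dose, and the SKNMC library at 200 nM held 4.46 times its DMSO level against 2.04 times in A673. The log2 fold changes at 200 nM were 1.02 in A673, number 14 of 11077, and 2.10 in SKNMC, number 5 of 11896.

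IER3 (ENSG00000137331), also known as IEX-1, is a stress-inducible regulator of apoptosis and a target of NF-κB and p53. It spans chr6:30710975-30712331 on the minus strand of hg19. Its levels in A673 were 37.3 FPKM with DMSO, 53.8 at the lower dose and 92.3 at the higher. The SKNMC levels were 18.4 FPKM, 28.9 and 85.3. The lines thus stood 2.03-fold apart with DMSO and 1.08-fold apart at 200 nM. At 200 nM the log2 fold changes were 1.28 in A673, number 6, and 2.16 in SKNMC, number 4.

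IER5 and IER5L share an N-terminal IER domain with IER2, and IER5 is known to bind PP2A and to promote the activity of the heat shock factor HSF1. IER5 (ENSG00000162783), at chr1:181057637-181059977 on the plus strand of hg19, held 34.9 FPKM with DMSO, 32.9 at the lower dose and 18.8 at the higher in A673. It held 18.2, 27.0 and 16.6 FPKM in SKNMC, so the 50 nM library was the highest of that line. No log2 fold change of IER5 against DMSO passed 2-fold, and the values ran from -0.86 in A673 at 200 nM to 0.54 in SKNMC at 50 nM. With ribosomal protein genes as the scale the value in A673 at 200 nM was -1.19, past 2-fold. IER5L (ENSG00000188483), at chr9:131937834-131940540 on the minus strand of hg19, held 9.42 FPKM with DMSO, 26.6 at the lower dose and 15.2 at the higher in A673. It held 12.7, 41.0 and 65.7 FPKM in SKNMC. Every THZ1 library was above the DMSO library of its line, but A673 peaked at 50 nM and SKNMC at 200 nM. The log2 fold changes were 1.40 and 0.64 in A673 and 1.61 and 2.28 in SKNMC, the last being number 2 of the 11896 genes tested. IER5 and IER5L thus differed from each other in each line, although the gene products are related.

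The RefSeq windows of IER5 and IER5L are shown because both hold a match to the heat shock element GAANNTTC, a motif that was added after the data had been seen. They lie at chr1:181088450-181088749 on the plus strand and chr9:129178212-129178511 on the minus strand of GRCh38.p14. Capitals mark that element and, in IER5, the TATA box.
IER5: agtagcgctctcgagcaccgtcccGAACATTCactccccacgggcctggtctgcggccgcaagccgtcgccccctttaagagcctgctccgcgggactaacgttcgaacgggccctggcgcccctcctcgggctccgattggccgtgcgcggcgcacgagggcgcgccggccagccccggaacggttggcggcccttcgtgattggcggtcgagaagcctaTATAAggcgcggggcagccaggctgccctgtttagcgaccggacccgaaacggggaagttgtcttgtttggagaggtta
IER5L: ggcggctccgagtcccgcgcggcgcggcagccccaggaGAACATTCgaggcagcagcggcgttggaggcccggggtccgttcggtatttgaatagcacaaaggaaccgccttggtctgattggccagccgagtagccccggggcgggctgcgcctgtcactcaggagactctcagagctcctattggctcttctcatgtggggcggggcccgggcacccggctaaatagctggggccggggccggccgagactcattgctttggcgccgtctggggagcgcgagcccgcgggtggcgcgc

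The heat shock element match begins at position -226 in IER5 and at -212 in IER5L, and the same letters occur in 6.77% of all windows. IER2 holds neither this element nor a CArG box, and 1 CRE core at -140.

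The sum of IER2, IER3, IER5 and IER5L went from 147 FPKM in A673 with DMSO to 219 at 50 nM and 260 at 200 nM, and from 69.9 to 153 and 259 FPKM in SKNMC. At 200 nM both lines held nearly the same sum. Their share of the FPKM of all 10 genes was 70.7%, 82.7% and 75.9% in A673 and 49.1%, 73.5% and 90.8% in SKNMC. All 10 together went from 0.0454% of the listed FPKM with DMSO to 0.0743% at 200 nM in A673, and from 0.0307% to 0.0631% in SKNMC.

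The doses were also compared with each other. Between 200 and 50 nM in A673, 1 of 8 members was higher at 200 nM by at least 2-fold, EGR1 with a log2 fold change of 1.88, against 0.117% of genes, and 0 were lower, against 7.44%. IER5 and IER5L were at -0.78 and -0.77. In SKNMC IER3 was higher at 200 nM, with 1.53, against 0.37% of genes, and EGR2 was lower, with -1.56, against 8.39%. EGR1 in A673 was number 2 of 11077 and IER3 in SKNMC number 3 of 11896 from the highest. IER5 was lower at 200 than at 50 nM in both lines, whereas IER5L differed in sign, with -0.77 in A673 and 0.67 in SKNMC.

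Before treatment the lines already differed. With DMSO, 2 of the 8 members were higher in A673 at least 2-fold, against 8.39% of the 11855 genes tested, and 1 was higher in SKNMC, against 14.2%. EGR1 was 5.35 times and IER2 3.20 times as high in A673, while EGR2 was 2.63 times as high in SKNMC. IER3, at 37.3 and 18.4 FPKM, lay just short of the call at 0.99 with the pseudocount of 1 and past it at 1.02 with a pseudocount of 0.1. SRF was nearly level between the lines, at 1.12 times.

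The responses of both lines could be compared for 10574 genes above 1 FPKM with DMSO in both. EGR1 showed the widest gap of the members at 200 nM, 1.98 in A673 and -0.67 in SKNMC, and this gap was number 2 of the 10574 genes from the highest. At 50 nM its values of 0.11 and -1.19 gave number 12. IER5L at 200 nM was the opposite case, with 0.64 in A673 and 2.28 in SKNMC, number 9 from the lowest. Opposite signs in the lines were seen for 15.2% of genes at 50 nM and 18.7% at 200 nM. Among the members they occurred for EGR1 at both doses and for IER5 at 50 nM, where A673 had -0.08 and SKNMC 0.54.

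**Figure D4:**
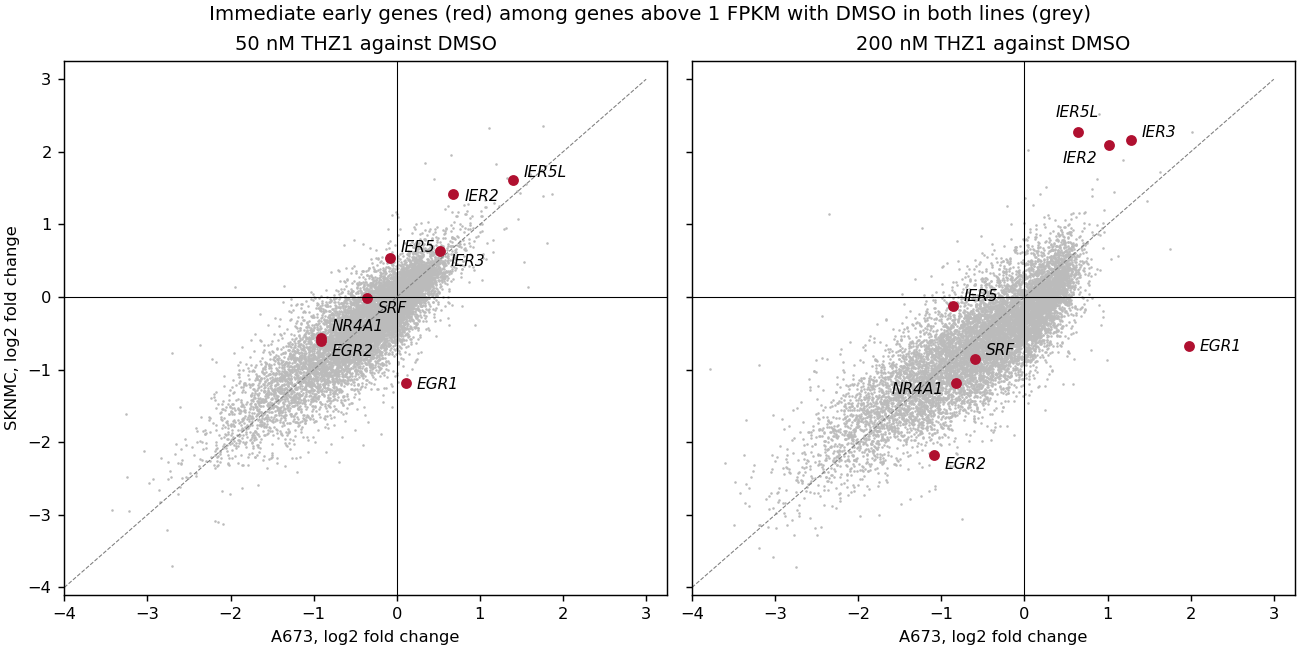
Log2 fold change in SKNMC against that in A673 at 50 nM (left) and 200 nM (right) for the 10574 genes above 1 FPKM with DMSO in both lines (grey) and the 8 tested members (red, named), 1 library per condition, with the dashed line marking equal values. EGR1 lies far right of the cloud at 200 nM (1.98, -0.67), and IER2, IER3 and IER5L lie above it. EEF1A1, listed at 0 in both SKNMC THZ1 libraries, falls below the axis in each panel.

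The transcripts were described with the GENCODE annotation of GRCh37. The canonical transcripts of 7 of the 10 genes have at most 3 exons, compared with 13.7% of genes with a mean of more than 1 FPKM with DMSO, whose median is 9 exons. IER5 and IER5L have 1 exon, EGR1, EGR2, EGR3, IER2 and IER3 have 2, SRF and NR4A1 have 7 and NR4A2 has 8. Of genes with at most 3 exons, 44.5% were lower and 0.489% higher at 200 nM in A673, beside 25.3% and 0.126% of all genes tested, and 42.9% and 1.13% in SKNMC, beside 27.3% and 0.462%. AUUUA, the core of AU-rich elements that mark short-lived mRNAs, occurred 8.14 times per kb in the 3′ untranslated region of IER3, 5.37 in NR4A1, 3.32 in IER5, 2.33 in IER5L and 0.818 in EGR1, beside a median of 1.78 over genes. IER2 had none. Members with a larger share after THZ1 thus held both the highest and the lowest of these densities. No 100-base stretch was shared between the canonical transcripts of any of the 45 pairs of members.

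Genes known to act with the members were examined as lists. None of their tested genes was higher at least 2-fold in any of the 4 comparisons with DMSO. Few genes of the whole table were, with 0.343% and 0.126% of those tested in A673 and 0.471% and 0.462% in SKNMC. This absence therefore does not set the lists apart. The other family members EGR4, at 1.39 FPKM in A673 and 2.71 in SKNMC with DMSO, and NR4A3 were below 0 in all 4, with EGR4 at -1.01 and -1.04 in A673 and -1.68 and -1.64 in SKNMC and NR4A3 at -0.73, -0.81, -0.84 and -1.06 in the same order. Of the corepressors that bind EGR proteins and are themselves EGR targets, NAB2 held 27.2 FPKM with DMSO and 6.07 at 50 nM in A673, and its log2 fold changes were -1.55 at 200 nM there and -1.58 and -1.83 in SKNMC. NAB1 was at 0.22, -0.20, 0.11 and -0.44. In A673 at 200 nM, where EGR1 had its highest level of the series, NAB2 held 8.61 FPKM, above the 50 nM library and below the DMSO library. In SKNMC NAB2 held 12.1 FPKM at 50 nM and 10.1 at 200 nM. A link between EGR1 and NAB2 was not tested.

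Among the SRF cofactors 5 of 6 were tested and 1, MKL1, which encodes MRTF-A, was lower at least 2-fold, and this at 200 nM in both lines, with -1.85 in A673 and -1.63 in SKNMC and -0.19 and -0.02 at 50 nM. This 1 of 5 stands against 25.3% and 27.3% of all genes tested at 200 nM. ELK1 was at -0.49, -0.16, -0.76 and -0.82. SRF cytoskeletal targets had medians of -0.02, 0.02, -0.09 and -0.06 over the 14 of 16 tested. FHL2 was the only one of them to pass 2-fold, at -1.23 in A673 at 200 nM and -1.07 and -1.17 in SKNMC. The shares of all genes lower in these comparisons were 25.3%, 15.8% and 27.3%, and 15.9% in A673 at 50 nM, where 0 of the 14 passed. Single genes went both ways, with ZYX at -0.55, -0.58, -0.87 and -0.97, ACTA2 at 0.01 and 0.05 in A673 and -0.63 and -0.66 in SKNMC, FLNA at 0.58, 0.36, 0.26 and 0.47, and ACTB at 0.18, 0.27, 0.12 and 0.11. The medians of all genes tested were -0.27, -0.40, -0.32 and -0.55.

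The 18 genes of ERK and CREB signalling had medians of 0.02 and -0.31 in A673, and the 17 tested in SKNMC had 0.00 and -0.59. Those lower at least 2-fold numbered 1 and 4 in A673 at 50 and 200 nM, against 15.9% and 25.3% of all genes tested, and 1 and 3 in SKNMC, against 15.8% and 27.3%, so this list was not above the background. CREB1 was at -1.74, -1.91, -1.93 and -1.50. The coactivator EP300 was at -1.53 and -1.61 at 200 nM, beside -0.06 and -0.15 at 50 nM. CRTC3 was at -1.16 and -1.11 at 200 nM and CREBBP at -1.31 in A673, and MAPK3, which encodes ERK1, had the highest A673 value at 200 nM, 0.77. The NR4A partner RXRA was lower at least 2-fold at 200 nM, with -1.05 and -1.08, and RXRB, the other of the 2 tested, was at -0.79 and -0.27. All genes tested were lower in 25.3% and 27.3% of cases there. Of the PP2A subunits and HSF1, 7 of 9 were tested. At 50 nM 0 of them were lower at least 2-fold in either line, against 15.9% of all genes tested in A673 and 15.8% in SKNMC. At 200 nM 2 were in A673, against 25.3%, and 3 in SKNMC, against 27.3%. PPP2R2A and PPP2R2D were lower in both lines at 200 nM, at -1.40 and -1.32 in A673 and -1.40 in SKNMC for each, and PPP2CA was at -0.94 and -1.11. HSF1 was at 0.06 and -0.06.

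**Figure D5:**
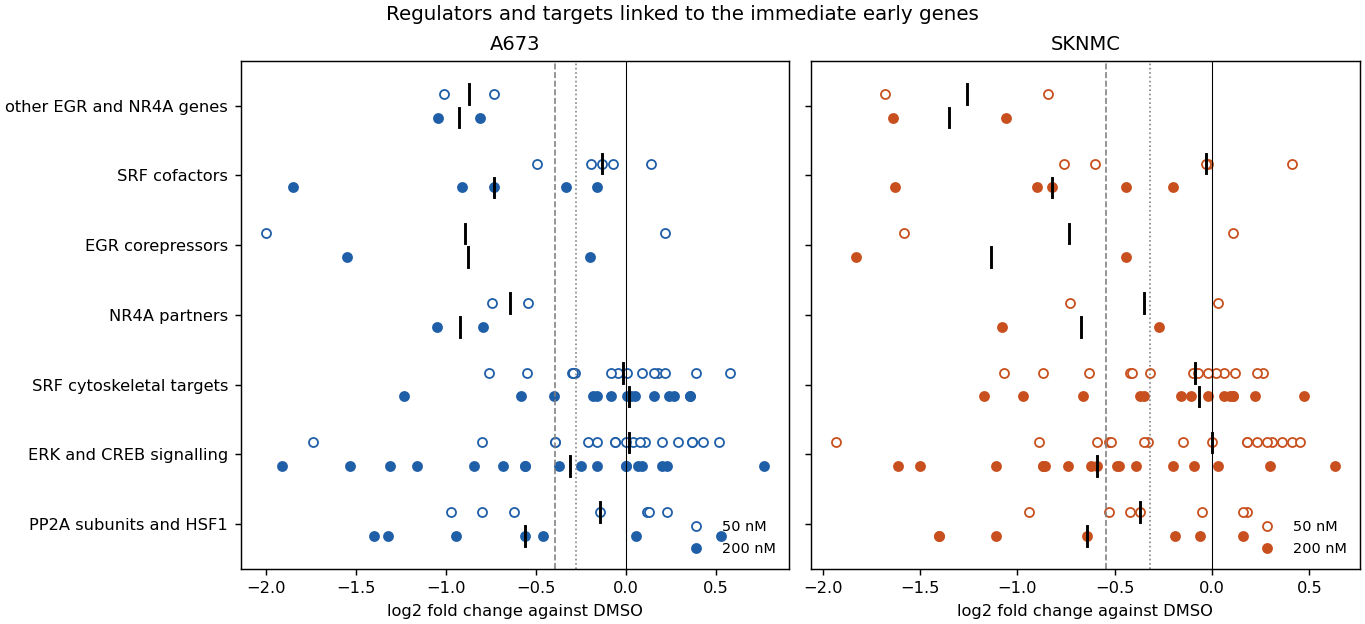
Log2 fold change against DMSO of the tested genes in 7 lists linked to the members, for A673 (left) and SKNMC (right), at 50 nM (open points) and 200 nM (filled points), 1 library per condition. Short black bars are list medians and the grey vertical lines are the medians of all genes tested at 50 nM (dotted) and 200 nM (dashed). No point reaches a log2 fold change of 1, reached by 0.126% to 0.471% of all genes tested. The medians of the cytoskeletal list run from -0.09 to 0.02.

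Likeness of pattern was measured as the Euclidean distance over the 4 log2 fold changes against DMSO, among 5980 genes above 10 FPKM with DMSO in both lines and above 0 in all libraries. These values share DMSO libraries, and the distances are a description. Members needed only more than 1 FPKM with DMSO in both lines, and IER5L and NR4A1 in A673 and EGR1 in SKNMC lay below 10 FPKM. Genes outside the members at such levels were not compared. IER2 and IER5L were each other's nearest member, at 0.85, and IER2 was also the nearest member of IER3, at 0.86. IER3 and IER5L were less alike, with 0.52 and 1.40 in A673 and 0.63 and 1.61 in SKNMC at 50 nM. Of the 5980 genes compared, 0 lay closer to IER2, IER3 or IER5L than its nearest member did. Outside the members, the nearest named genes were CRIP1 at 1.35 from IER2, JUNB at 1.39 from IER5L and PCSK1N at 1.19 from IER3, and the noncoding gene XIST at 1.30 from IER2 and 1.22 from IER5L. CRIP1 was also the second of IER3, at 1.25. Nearest to EGR1 among the genes compared were DHCR7, an enzyme of cholesterol synthesis, at 1.53 and SYNPR, a synaptic vesicle protein, at 1.54.

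The other members had closer neighbours, with 30 genes outside the members within 0.25 of SRF, 11 of NR4A1, 1 of IER5 and 0 of EGR2. B4GALT3 and NSMCE4A lay at 0.07 and 0.14 from NR4A1, and PDHX and TBC1D15 at 0.14 and 0.15 from SRF. BCAS2, a spliceosome component, and FAM58A lay at 0.34 and 0.40 from EGR2. MAP4K3 and IRF2BPL lay at 0.23 and 0.28 from IER5. There were 1097 genes outside the members closer to NR4A1 than SRF, its nearest member, and 3833 closer to EGR1 than its nearest member, also SRF.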

How the data were processed

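RNA-seq was measured in 6 libraries, and conditions were taken from the sample labels. The authors prepared TruSeq libraries, sequenced 100-base paired-end reads and aligned them with STAR to hg19 with Ensembl 75 genes. The labels name Cufflinks and the paper's methods name StringTie for the deposited FPKM values. The title of the table speaks of average expression, whereas the labels give 1 library per condition, and each column was treated as 1 library. Columns of log2 fold changes between THZ1 and DMSO, also deposited by the authors, were not used. FPKM keeps no counts, so no counting interval was possible.

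Fold changes were computed over all genes with Python 3.11.15, pandas 2.3.3 and numpy 2.4.6, with a pseudocount of 1, a filter of FPKM above 1 with DMSO and a 2-fold threshold. On simulated data, changes planted in copies of the A673 DMSO library were checked for recovery with the 75th percentile scaling and a much smaller pseudocount. As many genes were raised as lowered there. That check does not cover the unscaled values with a pseudocount of 1, nor a background that is mostly lower. Alternatives were a pseudocount of 0.1, scaling to a common sum, to the 75th percentile or to ribosomal protein genes, no filter or FPKM above 5, and a 1.5-fold threshold. The text names all 10 genes, the 2 nearest genes outside them for each of 8, and, from the lists, the highest, the lowest and those past 2-fold, with a few further members chosen after their values were seen. The members and lists were chosen with earlier results of these data known. Gene spans are in hg19 and promoter windows in GRCh38.p14, and no coordinates were converted.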

Additional observations from a re-analysis of the deposited data

Results flagged for a closer look

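EGR1 and IER5 had opposite signs in the 2 cell lines. These differences were not tested, since each value rests on 1 library per condition. For EGR1 at 200 nM the log2 fold change was 1.98 in A673 and -0.67 in SKNMC, a difference of 2.65. The EGR1 values at 50 nM were 0.11 (A673) and -1.19 (SKNMC), a difference of 1.29, and the A673 value was -0.11 after scaling to ribosomal protein genes. EGR1 was at or below 2.38 FPKM in the SKNMC libraries. For IER5 at 50 nM the value was -0.08 in A673 and 0.54 in SKNMC, a difference of -0.62, and the A673 value was 0.17 after scaling to the 75th percentile. Opposite signs were seen for 15.2% of genes at 50 nM and 18.7% at 200 nM.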

How the results depend on the processing

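Of 77 counts recomputed under the alternatives, 61 stayed within 1.5 times the reported value and 16 did not. Shares given here are of all genes tested under the same setting. With a 1.5-fold threshold, the members lower than with DMSO numbered 2 in A673 at 50 nM, 4 in A673 at 200 nM, 2 in SKNMC at 50 nM and 4 in SKNMC at 200 nM. The shares of all genes were 31.8%, 41.1%, 33.5% and 48.0% in the same order. Members higher in A673 at 50 nM numbered 2, against 1.78%. With the same threshold, 4 differed between doses in A673, 7 in SKNMC, and 6 between the lines with DMSO, against 20.3%, 25.9% and 42.7%. With a pseudocount of 0.1 the lower members of A673 numbered 2 at each dose, against 21.6% and 31.1%. Scaling to the 75th percentile left 0 lower in A673 and 1 in SKNMC at 200 nM, against 17.3% and 13.4%. Scaling to ribosomal protein genes gave 2 lower members in A673 with the lower dose and 3 with the higher, against 21.3% and 34.5%. It left 1 higher in A673 at 200 nM, EGR1, against 0.0451%, with IER2 at 0.67 and IER3 at 0.93. With FPKM above 5 with DMSO, 0 were lower in SKNMC at 50 nM, against 15.8%, since EGR1 was no longer tested. The cause of the other shifts was not tested. The 75th percentile moved the median of all genes by 0.22 to 0.48 upwards against DMSO, and ribosomal protein scaling by -0.19 to -0.47. Of 280 member values, 0 called values reversed sign. Among tested genes 5 values short of 2-fold did: IER5 in A673 at 50 nM (0.17) and in SKNMC at 200 nM (0.41) and SRF in SKNMC at 50 nM (0.26) with the 75th percentile, and EGR1 in A673 at 50 nM (-0.11) and NR4A1 between doses in A673 with ribosomal protein genes. Among the genes not tested, 3 values within 0.03 of 0 did so too. Medians of the tested members moved in 11 of 28 cases, mostly with these 2 scalings. Of the 16 nearest genes, 12 were kept with a pseudocount of 0.1 and 2 with Pearson's r as the measure. Alternatives for the counts of higher members, and the groupings by exons and by AUUUA, were chosen after seeing the data. A fit that takes both lines as replicates of a dose was not run. EGR3, NR4A2 and, in SKNMC, EGR1 lay at low FPKM, and the depth behind their values is unknown.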
